A study of Mus musculus with 42 samples.

Results

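The genes described here are 7 cytokine genes, Ifng, Il10, Csf1, Csf2, Osm, Lif and Il23a, out of 54353 genes counted in every bulk RNA-Seq library of the series. They were taken from a list of named cytokine genes, secreted by lymphocytes and myeloid cells, which was drawn up with earlier results of these data known. They were followed in 34 bulk RNA-Seq libraries of the 42 samples and in a single-cell RNA-Seq (scRNA-Seq) matrix of 15175 cells. All 7 had reads in at least 9 of the 34 libraries. Ifng had reads in all 34, Csf2 in 33, Osm in 31, Il10 in 14, Csf1 and Lif in 12 each, and Il23a in 9.

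Natural killer (NK) cells of the uterus are the main lymphocytes of the early decidua, and tissue-resident NK (trNK) cells are the subset that stays in the organ. NK cells act on their surroundings partly through cytokines: interferon gamma (Ifng) remodels maternal arteries and activates macrophages, the colony-stimulating factors (Csf1, Csf2) feed myeloid cells and trophoblast, oncostatin M (Osm) and leukemia inhibitory factor (Lif) signal through the gp130 receptor chain, interleukin-10 (Il10) restrains inflammation, and Il23a encodes the p19 subunit of interleukin-23. Interleukin-21 (IL-21) is a cytokine made by T cells whose receptor on NK cells activates the transcription factor STAT3. The mRNAs of many cytokines are short-lived, since decay factors bind AU-rich elements in them.

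All mice were wild-type C57BL/6 females, 8 to 12 weeks old according to the methods of the study, and gestation days (gd) were counted from the copulation plug. Uterine trNK were sorted as CD45+NK1.1+NKp46+CD49a+CXCR6- cells from virgin mice and from mice at gd6.5 or gd8.5, with no treatment. At gd8.5 they were also sorted by the surface proteins CD55 and 4-1BB into low (trNK-V), intermediate (trNK-D) and high (trNK-T) cells. In a 3-day culture, trNK in medium with IL-15 received nothing further, 20 ng/mL IL-21, or 20 ng/mL IL-21 with 1 µM Stattic, an inhibitor of STAT3 (iSTAT3), and live NK1.1+ cells were then sorted again. In a time course, trNK were kept for 0, 6, 24 or 72 h with IL-15, with or without 20 ng/mL IL-21. The cells of both cultures are called trNK in the sample labels, which give gd6.5 for the time course alone, and in the paper they appear both as trNK-V of gd6.5 mice and, in its culture methods, as trNK of mice that were virgin or at gd6.5. For the time course, the sample labels give 10 ng/mL IL-15 and the treatment protocol gives 15 ng/mL. For the 3-day culture they give no IL-15, and no duration for the cells without IL-21. The culture methods of the paper give 10 ng/mL and 3 days. Each of the 17 groups had 2 libraries, and nothing in the labels says that they came from separate animals or cultures, so the p-values below measure the spread between these libraries only. The 4 experiments were fitted separately, since the time course was prepared with another kit, and levels set side by side across experiments carry no test.

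The libraries held 11861343 to 66462748 counts. A level is given as RPKM, the reads of a gene scaled to its exon length and to the total counts of the library, first library 1 and then library 2, and a test as the log2 fold change with its standard error (SE) and the adjusted p of edgeR's quasi-likelihood test. The SE is the absolute log2 fold change divided by the square root of the F statistic of that test. Where 1 group has no read, the counts set no finite fold change, so neither value measures its size. A gene was called where the adjusted p was below 0.05 and the fold above 2. Every library had the NK markers, summed over 6 genes to at least 1775 RPKM, but some libraries of a group stood apart. In the virgin trNK, the granzyme gene Gzmc, which marks trNK, had 22.4 RPKM in library 1 and 8387 in library 2, and in the 72 h culture without IL-21, library 2 had far less Ifng than library 1. Erythrocyte markers summed to 844.3 RPKM in gd8.5 library 2 and 223.9 in virgin library 2. Virgin library 1 was counted on another gene model, with 55573 genes against 54446 in the other tables, and among the members the exons of Osm differ between them, at the same total length.

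The genes lie on mouse genome build mm10 as follows: Ifng (ENSMUSG00000055170) at chr10:118441046-118445892 and Il10 (ENSMUSG00000016529) at chr1:131019845-131024974 on the plus strand, Osm (ENSMUSG00000058755) at chr11:4236420-4241026 and Lif (ENSMUSG00000034394) at chr11:4257557-4272514 on the plus strand, and Csf1 (ENSMUSG00000014599) at chr3:107741048-107760469, Csf2 (ENSMUSG00000018916) at chr11:54247271-54249667 and Il23a (ENSMUSG00000025383) at chr10:128296139-128298752 on the minus strand. Osm and Lif are neighbours on chromosome 11. The spans are whole genes with exons and introns, and the counts come from exons. Ifng overlaps Gm49751 on its own strand and Csf2 overlaps Gm12223 on the other strand, so reads of the overlapping stretches cannot be told apart.

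The 250 bases before the RefSeq start are shown for Ifng and Csf2, the members with the widest swings in level among those with a RefSeq promoter entry (4 of 7 members matched; Il10, Osm and Il23a did not). Capitals mark matches, on either strand, to 3 short motifs: TTCNNNGAA (bound by STAT factors), TGANTCA (AP-1) and GGAAA (NFAT).
Ifng promoter, chr10:118440796-118441045, plus strand, GRCm38.p6: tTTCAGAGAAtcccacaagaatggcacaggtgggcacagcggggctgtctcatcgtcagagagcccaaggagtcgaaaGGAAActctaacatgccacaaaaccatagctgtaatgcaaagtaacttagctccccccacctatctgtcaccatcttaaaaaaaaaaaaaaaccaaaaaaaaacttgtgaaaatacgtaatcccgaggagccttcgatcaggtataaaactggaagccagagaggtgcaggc
Csf2 promoter, chr11:54249900-54250149, minus strand, GRCm38.p6: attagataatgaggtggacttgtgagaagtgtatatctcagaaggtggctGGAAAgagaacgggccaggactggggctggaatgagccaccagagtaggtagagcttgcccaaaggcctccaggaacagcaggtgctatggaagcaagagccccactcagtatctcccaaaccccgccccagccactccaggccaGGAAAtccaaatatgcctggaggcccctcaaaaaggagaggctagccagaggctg
The Ifng window held 1 STAT match, TTCAGAGAA, beginning 249 bases before the start, and 1 NFAT match. The Csf2 window held 2 NFAT matches, 200 and 55 bases before the start, and neither of the other motifs; its RefSeq start lies 232 bases from the gene start in the deposited tables. Of the 2 other matched members, Lif had 1 AP-1 match and 1 NFAT match, and Csf1 had 3 NFAT matches. Over 32851 RefSeq promoter windows of this length, 7.02% held the STAT motif, 6.75% the AP-1 motif and 55.6% the NFAT motif, so a match to the last is common.

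**Figure D1:**
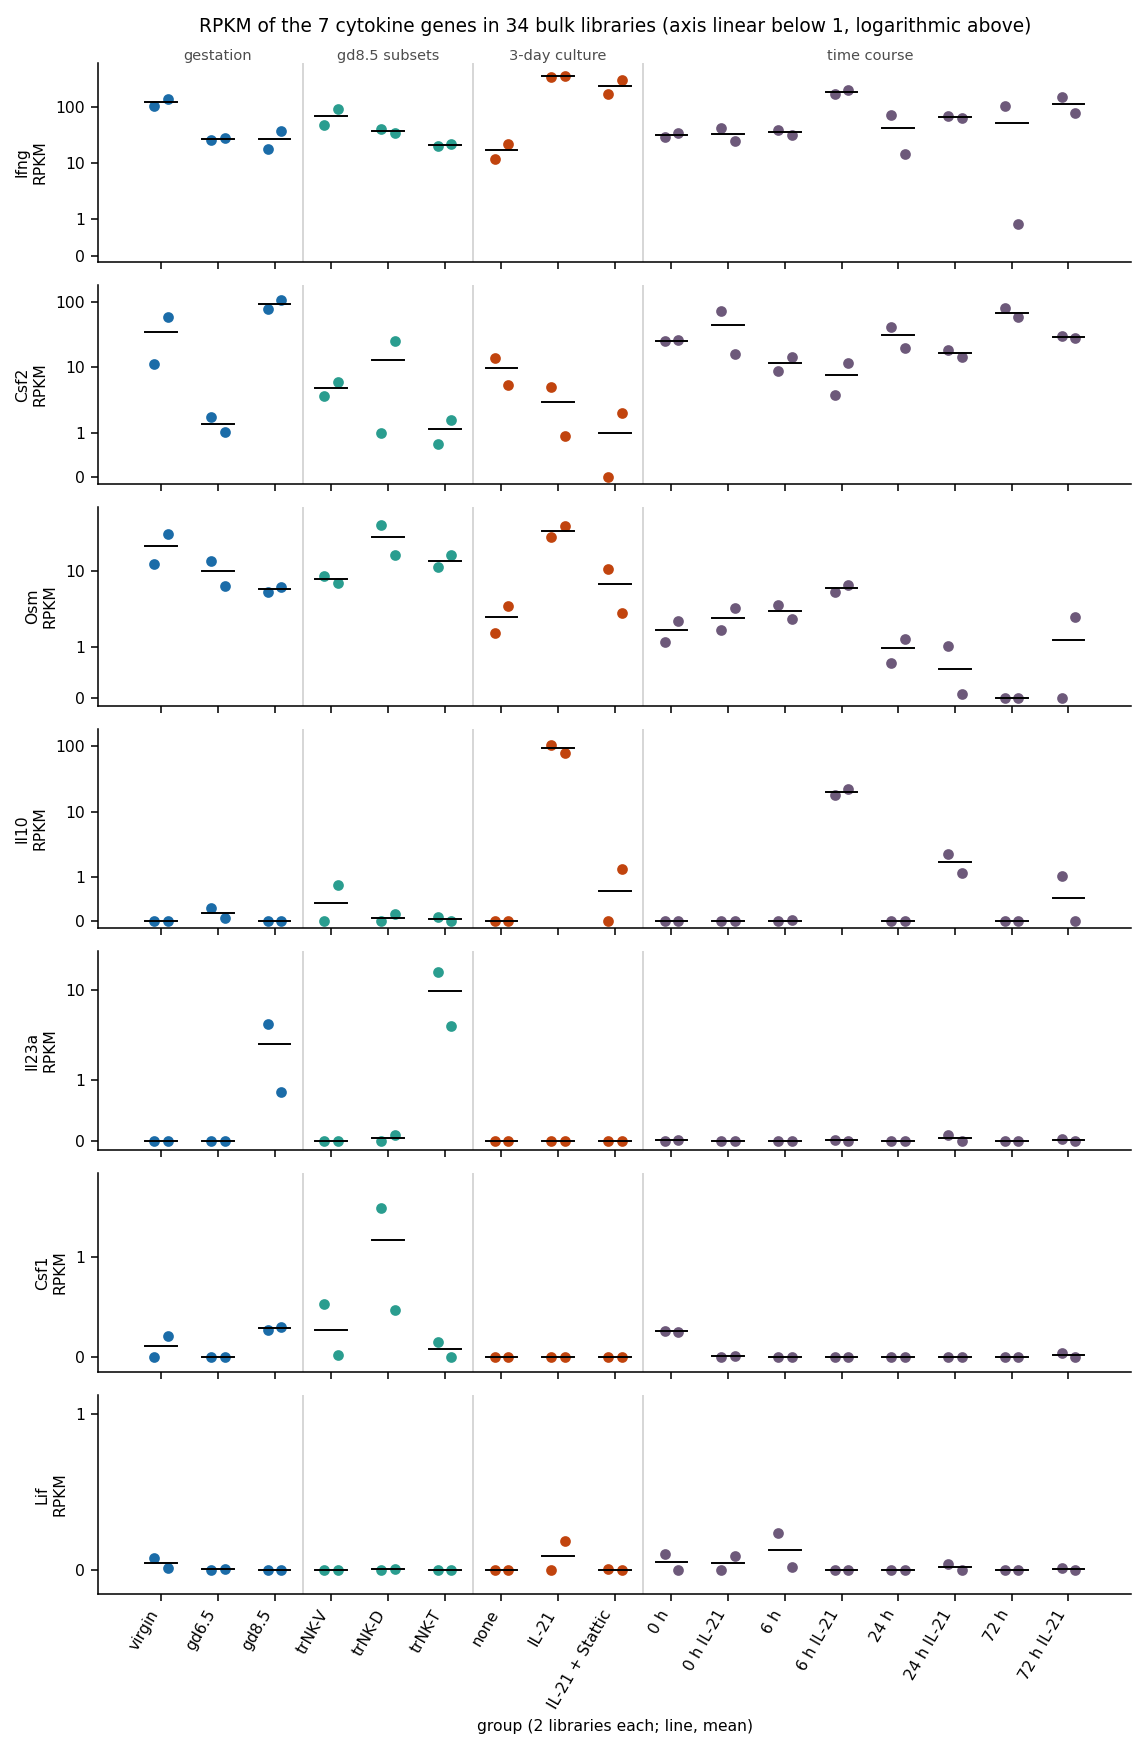
Levels of the 7 cytokine genes in the 34 bulk libraries. Each point is 1 library (RPKM, axis linear below 1 and logarithmic above), black lines are means of the 2 libraries of a group, and vertical lines part the 4 experiments; Ifng lay above 10 RPKM in 33 libraries, while Il10 exceeded 1 RPKM only in cells given IL-21 (highest 104.8) and Il23a exceeded 0.1 RPKM only in whole gd8.5 trNK and in trNK-T.

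Ifng, the main activating cytokine of NK cells, was the member detected most steadily, with a median of 41.8 RPKM over the 34 libraries. In virgin trNK it stood at 105.8 and 140.2 RPKM, at gd6.5 at 25.7 and 28.0, and at gd8.5 at 18.2 and 37.1. Both virgin libraries lay above all 4 libraries from pregnant mice, and the gd6.5 and gd8.5 libraries overlapped. Summed tissue handling genes (9 immediate early and heat shock genes) were also higher in virgin trNK, at 923 to 1164 RPKM against 689 to 844 at gd6.5 and 633 to 727 at gd8.5, as were mast cell markers (6 genes), at 7.22 to 12.6 against 0.88 to 2.15 and 0.89 to 3.27. Both virgin libraries were also highest for macrophage markers (9 genes), at 29.6 to 30.2 RPKM against up to 14.1 at gd6.5 and 18.4 to 28.1 at gd8.5, and for neutrophil or monocyte markers (8 genes), at 470.2 to 718 against 296 to 339 and 418 in both gd8.5 libraries. Gamma delta T cell markers (5 found of 6 listed genes) stood at 371 to 568 RPKM in virgin trNK against 224 to 243 and 343 to 370.2. Interferon response genes (6 genes) were at 42.4 to 62.0 against 4.495 to 5.37 and 18.0 to 38.4. Other lists went the other way or overlapped. Endothelial markers (4 genes) were lower in virgin trNK, at 13.2 to 29.3 against 36.4 to 44.4 and 34.1 to 37.2. Conventional NK-like (cNK-like) markers (10 genes) were at 943.6 to 1193 against 613.8 to 1247 and 1430 to 1575. The part of these genes and cells in the result was not tested. The difference was -2.25 (SE 0.38) on the log2 scale at gd6.5 against virgin, with an adjusted p of 0.0938, and -2.17 (SE 0.38) at gd8.5 against virgin, with an adjusted p of 0.234. Between gd8.5 and gd6.5 it was 0.08 (adjusted p = 0.978). None of these differences was called by edgeR. In bulk libraries, fewer cells of a type and less RNA per cell cannot be told apart.

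The gestational comparisons had few calls in all: 0.0356% of 14040 genes at gd6.5 against virgin, 0.0356% at gd8.5 against virgin and 0% at gd8.5 against gd6.5. In the same order, 2415, 1407 and 1637 genes had an unadjusted p below 0.05, and DESeq2 called 830, 339 and 306. Among the members, 5 passed the filter on low counts and gave 15 tests, of which edgeR called 0, 8 had an unadjusted p below 0.05 and DESeq2 called 6. By DESeq2 the adjusted p of Ifng was 1.52e-06 at gd6.5 and 1.48e-05 at gd8.5 against virgin. Where a library was left out, the other library of its group stood alone and was assumed to vary like the other groups, which supplied the spread, here and in all such values below. On that assumption, without virgin library 1 the Ifng difference was called at gd6.5 (-2.49, adjusted p = 0.0215) and gd8.5 (-2.42, adjusted p = 0.0449). Without virgin library 2 it was likewise called at gd6.5 (-1.93, adjusted p = 0.0247) and gd8.5 (-1.88, adjusted p = 0.0388). The direction was thus the same without either of the unlike virgin libraries.

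Within gd8.5, Ifng fell from trNK-V to trNK-T. It stood at 47.5 and 94.7 RPKM in trNK-V, at 41.3 and 35.0 in trNK-D and at 20.2 and 21.9 in trNK-T, so that no library of one subset overlapped another. The difference between trNK-T and trNK-V was -1.57 (SE 0.35, adjusted p = 0.0458), and was called. The step from trNK-V to trNK-D was -0.79 (adjusted p = 0.422) and that from trNK-D to trNK-T was -0.78 (adjusted p = 0.456). Of all 14335 genes tested, 6.75% were called between trNK-T and trNK-V, 0.00698% between trNK-D and trNK-V and 0.0767% between trNK-T and trNK-D. The 5 members that passed the filter gave 15 tests, of which edgeR called 2 and DESeq2 4. Over all 14335 genes, DESeq2 called 2103 between trNK-T and trNK-V, 407 between trNK-D and trNK-V and 449 between trNK-T and trNK-D. The call for Ifng was lost when any 1 of the libraries other than trNK-V library 1 was left out; without trNK-V library 2 the difference was -0.97. It was also lost with the replicate number as a block (adjusted p = 0.0591). The tissue handling genes moved with it, from 1528 to 2946 RPKM in trNK-V through 670 to 821 in trNK-D to 139 to 389 in trNK-T, and so did cNK-like markers (10 genes), from 1500 to 2438 through 926 to 931 to 319.7 to 358, and markers of type 1 innate lymphoid cells (6 genes), from 29.7 to 71.8 through 28.1 to 29.5 to 8.42 to 9.94. T cell markers (8 genes) were likewise at 531.5 to 572 RPKM in trNK-V, 389 to 398 in trNK-D and 237 to 382 in trNK-T, and gamma delta T cell markers at 374 to 612, 346 to 454 and 224 to 262. Sums of the B cell and type 2 innate lymphoid cell lists were also lower in both trNK-T libraries than in both of trNK-V. So were those of the dendritic cell, macrophage, stromal and interferon response lists. Other lists were higher in both trNK-T libraries than in both of trNK-V. Neutrophil or monocyte markers (8 genes) were at 527 to 745 RPKM against 431 to 455. Mast cell markers (6 genes) were at 5.552 to 5.927 against 0.3709 to 1.926, and endothelial markers (4 genes) at 46.09 to 49.92 against 19.57 to 20.96. The part of these genes and cells in the result was not tested.

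Ifng reached its highest values of all libraries in the 3-day culture with IL-21. Without IL-21 it stood at 11.97 and 22.1 RPKM, with IL-21 at 353.8 and 362.7, and with IL-21 and iSTAT3 at 176.3 and 305.4. Both libraries with the inhibitor lay below both with IL-21 alone and far above both without IL-21. The difference of IL-21 with iSTAT3 against no IL-21 was 4.21 (SE 0.47, adjusted p = 0.0386), and was called. The difference of IL-21 against no IL-21 was slightly larger, 4.66 (SE 0.48), with an adjusted p of 0.0896, and adding iSTAT3 gave -0.45 (SE 0.42, adjusted p = 0.733) against IL-21 alone. Few genes passed in this experiment: 0.154% of 13647 for IL-21 with iSTAT3 against no IL-21, 0.00733% for iSTAT3 with IL-21 against IL-21, and 0% for IL-21 against no IL-21, where 710 genes had an unadjusted p below 0.05 and DESeq2 called 191. By DESeq2 the adjusted p for Ifng with IL-21 against none was 2.67e-23. The 4 members that passed the filter gave 12 tests, of which edgeR called 1 and DESeq2 5. Over all 13647 genes, DESeq2 called 741 for adding iSTAT3 to IL-21 and 1007 for IL-21 with iSTAT3 against no IL-21. Leaving out either library without IL-21 took the adjusted p of the called difference to 0.151 and 0.143, and the replicate block took it to 0.129. The IL-21 difference was called without inhibitor library 1 (4.71, adjusted p = 0.0201) or library 2 (4.71, adjusted p = 0.0291). The summed tissue handling genes also differed, at 51.7 to 158 RPKM without IL-21, 105 to 270.1 with IL-21 and 805.1 to 1063 with IL-21 and iSTAT3, and their part in the called difference was not tested.

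In the time course Ifng was higher with IL-21 at 6 h. It stood at 39.9 and 31.9 RPKM without IL-21 and at 171.9 and 204.5 with it, after 29.7 to 34.4 without and 25.1 to 42.4 with IL-21 at 0 h. At 24 h the values were 72.7 and 14.4 without and 70.3 and 63.9 with IL-21, and at 72 h they were 105.1 and 0.87 without and 151.7 and 79.6 with IL-21. The groups were separate at 6 h only. The fitted difference was 2.38 (SE 1.27, adjusted p = 1) at 6 h, 0.53 (adjusted p = 1) at 24 h and 1.07 (SE 1.22, adjusted p = 0.704) at 72 h, and none was called. Calls among all 14879 genes were 0.0672% at 6 h, 0.00672% at 24 h and 5.07% at 72 h. In the same order, 669, 769 and 2895 genes had an unadjusted p below 0.05, and DESeq2 called 191, 206 and 2205. For the IL-21 effect at 72 h minus that at 24 h these counts were 2130 and 1281. At 72 h against 24 h without IL-21, edgeR called 135 genes up and 1008 down. For the IL-21 effect at 72 h minus 6 h it called 340 up and 27 down, and in the other comparisons of the time course 0. Over the 10 comparisons of the time course, 6 members gave 60 tests, of which edgeR called 0, 9 had an unadjusted p below 0.05 and DESeq2 called 4. Of those with an unadjusted p below 0.05, all Osm tests used the 72 h controls, which had no Osm read. The Ifng value at 72 h depended on which library without IL-21 was kept: without library 2 (0.87 RPKM) the difference was 0.085, and without library 1 it was 6.81. A joint fit over both cultures, chosen after seeing the data, gave a difference of 3.62 (SE 1.55, adjusted p = 0.323) between the IL-21 effects on Ifng in the 3-day culture and at 72 h of the time course.

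**Figure D2:**
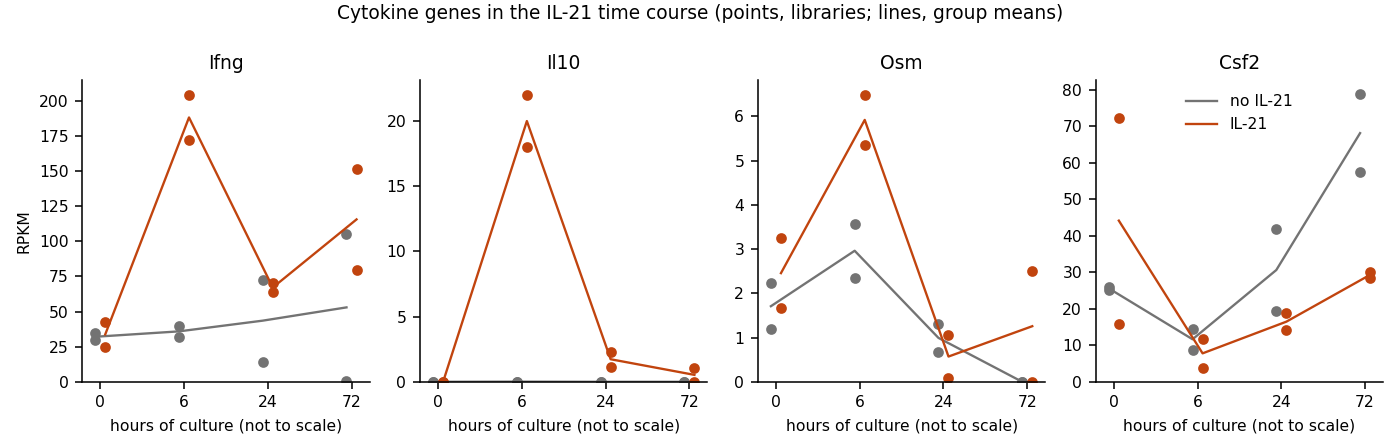
Ifng, Il10, Osm and Csf2 in trNK cultured for 0, 6, 24 or 72 h without (grey) and with (orange) IL-21. Points are libraries, lines join means of 2 libraries, the vertical axes are in RPKM and start at 0, and the time axis is not to scale; Ifng, Il10 and Osm with IL-21 lay above both control libraries at 6 h, and Csf2 at 72 h lay below both.

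Csf2, which encodes granulocyte-macrophage colony-stimulating factor (GM-CSF), differed widely between the ex vivo groups. It stood at 11.1 and 57.8 RPKM in virgin trNK, at 1.76 and 1.03 at gd6.5 and at 78.4 and 104.1 at gd8.5. Both gd6.5 libraries were the lowest and both gd8.5 libraries the highest of the 6, with no overlap between any pair of groups. Dendritic cell markers (7 genes) summed to 1.57 to 3.02 RPKM at gd6.5 and 8.17 to 16.3 at gd8.5. T cell markers (8 genes) summed to 280.4 to 421 and 452 to 486. The macrophage, neutrophil or monocyte, gamma delta T cell and interferon response sums given with Ifng were also higher at gd8.5. Type 2 innate lymphoid cell markers (5 genes) were lower, at 9.64 to 10.0 against 14.6 to 15.9. The part of these genes and cells was not tested. The Csf2 difference was -4.69 (SE 0.87, adjusted p = 0.0951) at gd6.5 against virgin, 1.35 (SE 0.72, adjusted p = 0.572) at gd8.5 against virgin and 6.04 (SE 0.91, adjusted p = 0.244) at gd8.5 against gd6.5. None was called by edgeR, while DESeq2 gave adjusted p-values of 3.17e-08 at gd6.5 against virgin and 5.25e-13 at gd8.5 against gd6.5. The virgin libraries set the size of 2 of these values: without virgin library 1 the gd6.5 difference was -5.45, without virgin library 2 it was -2.92, and without virgin library 2 the gd8.5 difference was 3.09, each of them called with 1 virgin library left and the spread of the other groups. Without virgin library 1 the gd8.5 difference was 0.58 (adjusted p = 0.598). The difference between gd8.5 and gd6.5 was called without virgin library 1 (6.03, adjusted p = 0.00200) and without virgin library 2 (6.02, adjusted p = 0.00477).

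The subsets sorted at the same gestation day were far lower in Csf2 than whole gd8.5 trNK. Values were 3.73 and 6.05 RPKM in trNK-V, 1.02 and 25.3 in trNK-D and 0.75 and 1.58 in trNK-T. All 6 subset libraries lay below both whole gd8.5 libraries; these are separate experiments and the difference was not tested. The difference between trNK-T and trNK-D was -3.46 (SE 1.46, adjusted p = 0.438) and rested on trNK-D library 2, without which it was 0.31.

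In culture Csf2 did not follow Ifng. In the 3-day culture it stood at 13.97 and 5.49 RPKM without IL-21, 5.03 and 0.93 with IL-21, and 0 and 2.02 with IL-21 and iSTAT3. Both IL-21 libraries lay below both control libraries, at a difference of -1.43 (SE 2.08, adjusted p = 1). In the time course the means without IL-21 were 25.6 RPKM at 0 h, 11.7 at 6 h, 30.7 at 24 h and 68.2 at 72 h. The 0 h libraries labelled with IL-21 read 72.4 and 15.98 RPKM, a difference of 0.90 (SE 0.75) that was not called. With IL-21 the libraries read 3.86 and 11.7 at 6 h, 18.7 and 14.2 at 24 h and 30.2 and 28.5 at 72 h. They lay below both controls at 24 h (19.4 and 41.9) and at 72 h (57.5 and 78.9), by -1.003 (SE 0.75, adjusted p = 0.968) and -1.30 (SE 0.76, adjusted p = 0.372), and overlapped them at 6 h (-0.63, SE 0.75, adjusted p = 1).

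Csf1, the growth factor of macrophages, was close to 0 in trNK. It exceeded 1 RPKM in 1 library, trNK-D library 1, with 2.13 RPKM, and 22 of 34 libraries had no read. Its receptor gene Csf1r, which macrophages express, was detected at 1.497 and 3.02 RPKM in trNK-D, at 0 and 1.49 in trNK-V and at 0 in trNK-T. The summed macrophage markers (9 genes) were 277 to 391 RPKM in trNK-D, 56.9 to 385 in trNK-V and 16.97 to 20.4 in trNK-T. Their part in the Csf1 reads was not tested.

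Osm had reads in 31 of the 34 libraries, with a median of 4.42 RPKM. It stood at 12.3 and 30.7 RPKM in virgin trNK. The gd6.5 libraries read 13.5 and 6.36 RPKM, and the gd8.5 libraries 5.26 and 6.25. Both gd8.5 libraries lay below both virgin ones, by -1.94 (SE 0.57, adjusted p = 0.385; DESeq2 0.0388), and the macrophage and the neutrophil or monocyte marker sums given with Ifng were also lower in both gd8.5 libraries, whose part was not tested. Without virgin library 1 the difference was -2.49 and without virgin library 2 it was -1.04, neither of them called. In the subsets it stood at 8.61 and 6.99 in trNK-V, 40.4 and 16.4 in trNK-D and 11.3 and 16.1 in trNK-T. No trNK-D library overlapped another subset, and the difference against trNK-V was 1.96 (SE 0.45, adjusted p = 0.278; DESeq2 0.00489), while trNK-T exceeded trNK-V by 1.01 (SE 0.44, adjusted p = 0.202). The macrophage markers given above overlapped between trNK-D and trNK-V and were lowest in trNK-T. The monocyte and macrophage lysozyme gene Lyz2 was at 212 and 303.1 RPKM in trNK-D, 19.3 and 269 in trNK-V and 1.97 and 4.61 in trNK-T. Neutrophil or monocyte markers (8 genes) were at 431 to 455 RPKM in trNK-V, 474 to 608 in trNK-D and 527 to 745 in trNK-T. The part of these cells in the Osm values was not tested.

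In the 3-day culture Osm stood at 1.55 and 3.45 RPKM without IL-21, 28.2 and 38.7 with IL-21, and 10.7 and 2.78 with IL-21 and iSTAT3. The IL-21 libraries were above all others, and the inhibitor libraries overlapped the controls. The summed macrophage markers (9 genes) were 18.9 to 20.7 RPKM without IL-21, 22.2 to 28.9 with IL-21 and 19.9 to 21.1 with IL-21 and iSTAT3. In the same order, NK markers (6 genes) were at 1848 to 2422, 4439 to 5899 and 1775 to 1848. Markers of trNK (9 genes) were at 4977 to 6808, 51900 to 56970 and 16550 to 22240. Markers of dividing cells (8 genes) were at 332.6 to 585.1, 366.5 to 392.3 and 135.9 to 249.8. The tissue handling genes given with Ifng differed as well. The part of these genes and cells in these Osm values was not tested. The difference was 3.99 (SE 0.75, adjusted p = 0.346; DESeq2 9.48e-06) for IL-21 against none and -2.24 (SE 0.69, adjusted p = 0.303; DESeq2 0.0337) for adding iSTAT3. In the time course it stood with IL-21 at 5.35 and 6.49 RPKM at 6 h against 3.57 and 2.35 without. At 24 h the groups overlapped, at 1.06 and 0.086 with and 0.68 and 1.30 without IL-21 (-0.96, SE 1.75, adjusted p = 1). At 72 h it had no read in either control library, and 0 and 2.51 RPKM with IL-21, so that the fitted difference of 10.4 (SE 3.04, adjusted p = 0.0842) rested on 1 library, also where DESeq2 gave an adjusted p of 0.000452. The IL-21 effect at 72 h minus that at 24 h was 11.3 (SE 3.53, adjusted p = 0.156; DESeq2 0.00444) and rested on the same library, in a comparison that called 2.43% of all genes.

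Lif, the other gp130 cytokine and a factor of implantation made by uterine glands, was not expressed at a level that could be compared. Its highest value was 0.24 RPKM, in 1 of the 6 h libraries without IL-21, and 22 of 34 libraries had no read.

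Il10, whose product restrains macrophages and T cells, was close to absent from freshly sorted cells and appeared with IL-21. Its highest value in the 12 ex vivo libraries was 0.82 RPKM, in trNK-V library 2. In the 3-day culture no read was counted in either library without IL-21, while IL-21 gave 104.8 and 78.98 RPKM. With IL-21 and iSTAT3 the libraries read 0 and 1.36 RPKM. Il10 with IL-21 was thus at least 741-fold higher than a floor of 3 counts per library allows for the controls, and the mean with the inhibitor was 0.00737 of that with IL-21 alone. The sums of NK, trNK and dividing cell markers given with Osm also differed between IL-21 alone and IL-21 with iSTAT3, and their part was not tested. For Il10 the fitted difference was 14.2 (SE 2.60, adjusted p = 0.406, DESeq2 0.0320) for IL-21. It was -7.01 (SE 1.68, adjusted p = 0.222, DESeq2 0.320) for adding iSTAT3, and neither was called by edgeR. The IL-21 difference was called without inhibitor library 1 (adjusted p = 0.00802) and without inhibitor library 2 (adjusted p = 0.0128).

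In the time course Il10 was highest at 6 h and lower than in the 3-day culture. At 6 h it stood at 0 and 0.023 RPKM without and 17.96 and 22.01 with IL-21, at 24 h at 0 and 0 without and 2.29 and 1.17 with it, and at 72 h at 0 and 0 without and 1.06 and 0 with it. Every IL-21 library lay above both controls at 6 and 24 h but not at 72 h. The fitted differences were 10.4 (SE 2.55, adjusted p = 0.453) at 6 h and 9.49 (SE 2.79, adjusted p = 0.674) at 24 h, the latter at least 26.8-fold over the floor. The Il21r mRNA, which encodes the IL-21 receptor, stood at 0.43 to 3.39 RPKM in the time course and at 6.72 to 53.2 RPKM in ex vivo cells, beside 3.55 to 63.1 RPKM in the 3-day culture. At 6 h the summed macrophage markers were 11.0 to 18.6 RPKM with IL-21 and 24.4 to 30.05 without, where 7 to 8 and 7 of the 9 had no read. The part of Il21r and of macrophages in the Il10 values was not tested.

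**Figure D3:**
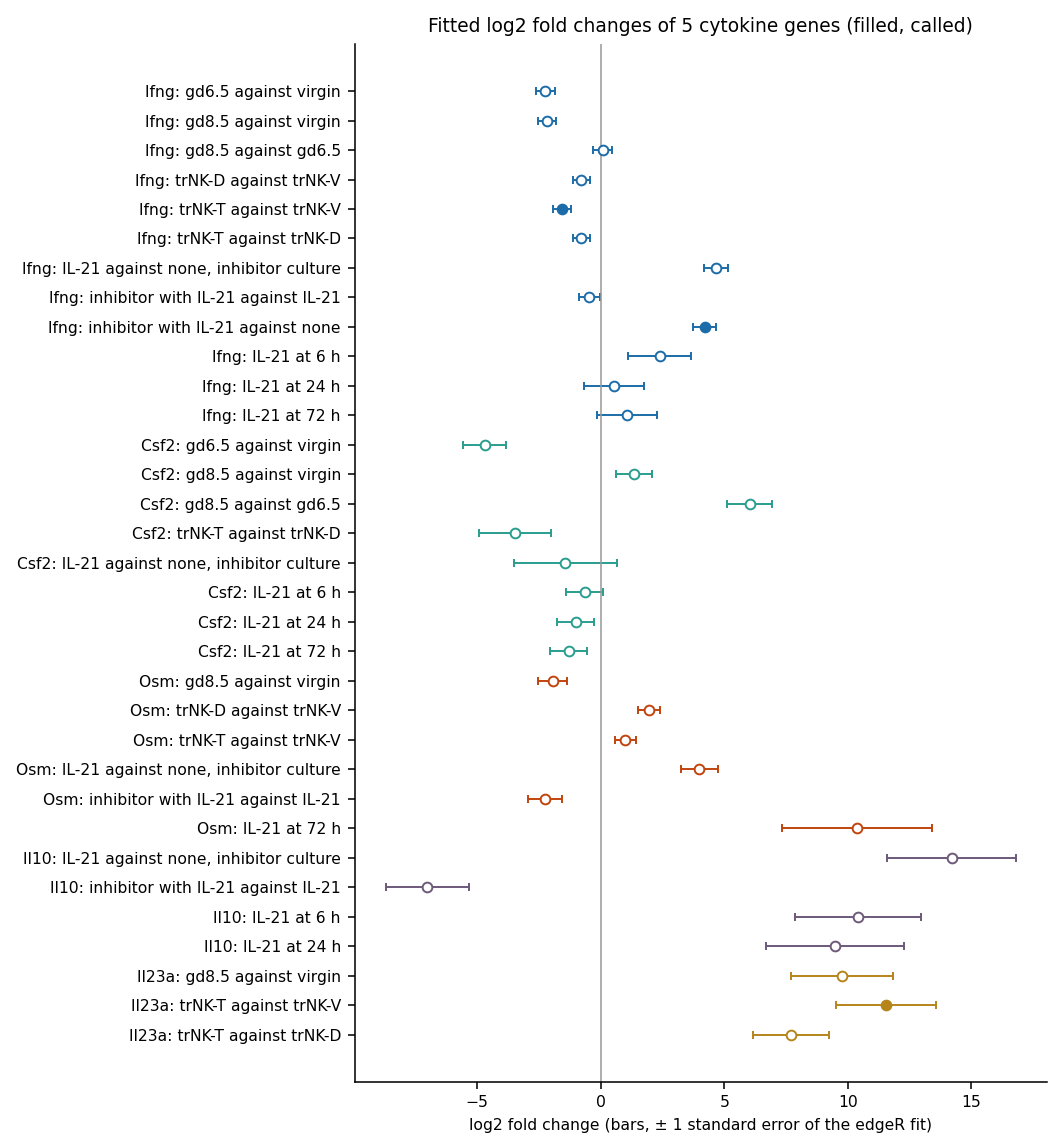
Fitted log2 fold changes of Ifng, Csf2, Osm, Il10 and Il23a in the comparisons named on the left, from edgeR. Circles are the fitted values, and bars are 1 SE on each side, derived from the F statistic of the test. Filled circles mark the 3 differences that were called: Ifng (-1.57) and Il23a (11.5) between trNK-T and trNK-V, and Ifng (4.21) with IL-21 and iSTAT3 against no IL-21.

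Il23a rose in trNK-T. It had no read in either trNK-V library, 0 and 0.09 RPKM in trNK-D, and 15.5 and 3.98 RPKM in trNK-T. Both trNK-T libraries lay above all others of the series, apart from whole gd8.5 trNK library 1 with 4.21 RPKM. The mean of the trNK-T libraries, carried by library 1, was at least 107-fold over the floor of 3 counts per library in trNK-V. The difference between trNK-T and trNK-V was called at 11.5 (SE 2.02, adjusted p = 0.0325). Against trNK-D it was 7.70 (SE 1.53, adjusted p = 0.225; DESeq2 2.10e-06). The call against trNK-V was lost when any trNK-V or trNK-T library was left out, with adjusted p-values up to 0.139, and with the replicate number as a block (0.0581). Markers of dendritic cells, which can make interleukin-23, did not move together. Their sum over 7 genes was 4.13 to 9.48 RPKM in trNK-T, 104 to 269 in trNK-V and 84.2 to 315 in trNK-D, and was carried by H2-Ab1 and Cd209a. Of the same list, Ccr7 was at 4.16 and 1.45 RPKM in trNK-T against 0 in both trNK-V libraries, Zbtb46 was at 2.36 and 0.51 against 0.34 and 2.37, and Flt3 was at 0 and 0.014 against 0.68 and 0. Neutrophil or monocyte markers were higher in both trNK-T libraries than in both of trNK-V, at 527 to 745 against 431 to 455 RPKM. So were the mast cell and endothelial markers given with Ifng, while the other lists of cell types named there were lower. The part of all these cells in the Il23a values was not tested.

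In whole trNK the same gene separated gd8.5 from the earlier groups. No read was counted in the 4 libraries of virgin mice and gd6.5, against 4.21 and 0.81 RPKM at gd8.5. The gd8.5 mean, carried by library 1, was at least 38.1-fold over the floor of the virgin libraries. The difference against virgin was 9.78 (SE 2.07, adjusted p = 0.345; DESeq2 0.00321), and 10.6 (adjusted p = 0.725) without the erythrocyte-rich gd8.5 library 2. None of the 6 libraries of the 3-day culture had a read, and the highest value of the 16 time course libraries was below 0.1 RPKM. Il12b, whose product p40 pairs with p19 to form interleukin-23, had no read in any of the 34 libraries.

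The receptors of the members were uneven in trNK. Ifngr1, one chain of the interferon gamma receptor, ranged from 35.4 to 450.8 RPKM, whereas Ifngr2, the other chain, never exceeded 0.73. Osmr stayed at or below 0.64 RPKM and Lifr at or below 0.11, and Csf2rb, the signalling chain of the GM-CSF receptor, at or below 0.72, beside Csf2ra at up to 13.2. Of 13 receptor genes, 9 were tested between trNK-T and trNK-V, of which Il12rb1, shared by the interleukin-12 and interleukin-23 receptors, rose by 1.21 (SE 0.25, adjusted p = 0.0379) and both interleukin-10 receptor genes fell, Il10ra by 1.73 (SE 0.31) and Il10rb by 2.00 (SE 0.34). Their median was -0.57, beside -0.05 over all genes tested, of which 6.75% were called. The sums of macrophage, dendritic cell, cNK-like and tissue handling genes given above were also lower in trNK-T, and their part was not tested. At 72 h of the time course Il12rb1 was the 1 receptor gene called of 6 tested, where 5.07% of all genes were called, and was 5.85 (SE 1.23) higher with IL-21. Macrophage markers (9 genes) summed to 0.0075 to 9.19 RPKM without and 27.9 to 67.9 with IL-21 at 72 h. Markers of dividing cells (8 genes) summed to 17.9 to 24.9 and 84.5 to 218, and NK markers (6 genes) to 4234 to 7669 and 11220 to 14510. Their part was not tested.

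Regulators of Ifng transcription were tested in full, all 15 of 15. Between trNK-T and trNK-V, 1 rose and 6 fell, with a median of -1.42, beside 6.75% of all genes called and a median of -0.05. The largest decreases were those of Il18rap, a chain of the interleukin-18 receptor (-3.97, SE 0.50, adjusted p = 0.0141), and of Stat4, the transcription factor downstream of interleukin-12 (-2.17, SE 0.22, adjusted p = 0.00938). Prdm1, which encodes the repressor Blimp-1, was the one that rose (1.96, SE 0.41, adjusted p = 0.0372). The macrophage, dendritic cell, cNK-like, innate lymphoid and tissue handling genes given above were also lower in trNK-T than in trNK-V in their sums, and Il18rap was itself among the leading genes of the cNK-like single cells; their part in these changes was not tested.

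Of 10 genes for proteins that bind or cleave cytokine mRNAs, a list that also holds the stabilising factor Elavl1 and the translational repressors Tia1 and Tial1, 4 fell between trNK-V and trNK-T, where 6.75% of all genes were called; 3 of the 10 had a log2 fold change above 0. Zfp36, which encodes tristetraprolin, fell by 2.90 (SE 0.51, adjusted p = 0.0262), Zc3h12a, which encodes the RNase Regnase-1, by 2.57 (SE 0.58) and Zfp36l1 by 2.44 (SE 0.46). The tissue handling genes and cNK-like markers given above were lower in trNK-T as well, and their part was not tested. At 72 h with IL-21, where 5.07% of all genes were called, 1 of 10 fell, Tial1, by 2.30 (SE 0.48). Of 30 other cytokine genes, 15 were tested between trNK-T and trNK-V and 3 fell, again beside 6.75% of all genes called: Ltb, the membrane anchor of lymphotoxin (-6.45, SE 0.55, adjusted p = 0.00678), Il16 (-1.69) and Flt3l, the growth factor of dendritic cells (-1.12), with a median of -1.34 over the 15.

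The scRNA-Seq data came from sorted uterine CD45+NK1.1+NKp46+ cells of 5 virgin mice and 2 gd8.5 mice, pooled by group, tagged and mixed before capture. The deposited values do not separate the groups for this purpose: the 2 tables list the same 15175 cells and share no gene, so both were taken as 1 pooled matrix with 35237 genes in all, and virgin mice were not compared with gd8.5. The matrix is 1 sample, so no test was made, and intervals cover counting error only. After the limits on genes per cell and on mitochondrial counts, 8907 cells were kept, with a median of 2576 unique molecular identifiers (UMIs). Clusters were named from fixed marker lists where 1 list led, with at least 3 of its markers raised and at least 1 among the 10 leading genes of the cluster. The gate selects against B cells, most T cells, macrophages and stromal cells, yet clusters with their markers were present.

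Ifng UMIs were highest in the cluster led by interferon response genes (Cxcl10, Ifit1; 141 cells), at 319.1 CPM, the UMIs of the gene scaled to all UMIs of the cluster (95% interval 262.8 to 384.0), and in the cNK-like (conventional NK-like) cluster (987 cells), at 288.5 (264.5 to 314.1). A cluster led by Cited4 and Cd7 (871 cells) was at 139.6 (124.2 to 156.4). Erythrocyte-like and T-like cells and the cluster led by Cd209a read 77.2, 66.5 and 71.3, with intervals that overlapped that of the virgin-type trNK-like cluster (1326 cells), at 65.3 (57.6 to 73.8). The terminal trNK-like clusters, led by Gzmf, Gzmc and Gzmd (1236 cells) and by Mt2, Scin and Ctsg (711 cells), were at 20.4 (16.9 to 24.5) and 3.41 (1.82 to 5.83). The intervals of these 3 trNK-like clusters did not overlap. The methods word the limits of 200 and 2500 as UMIs per cell, whereas they were applied here to genes per cell. Read as UMIs, they kept 4338 cells, and Ifng stood at 53.5 CPM (34.9 to 78.4) in terminal and 95.7 (72.1 to 124.5) in virgin-type trNK-like cells, with overlapping intervals, against 13.7 for both terminal clusters together here. The share of cells with an Ifng UMI was 27.3% in cNK-like cells (median 1723 UMIs), 13.0% in virgin-type trNK-like cells (2629) and 1.69% in the terminal cluster led by Mt2 (5618), against a background of 2.66% in B-like cells (1824), which should lack the mRNA. At 1000 UMIs per cell the shares were 19.1%, 5.35%, 0.141% and 1.39%.

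Il23a had the reverse pattern. It stood at 42.0 CPM (35.7 to 49.0) in the terminal cluster led by Mt2 and at 28.4 (24.2 to 33.1) in that led by Gzmf, against 2.53 (1.21 to 4.66) in virgin-type trNK-like cells, 3.25 in cNK-like cells and 3.22 (0.39 to 11.6) in B-like cells. Macrophage-like cells were at 4.03. Of the 393 Il23a UMIs in kept cells, 324 lay in the 2 terminal clusters. The cluster of dividing cells (Pclaf, Ube2c; 504 cells) was between, at 13.0 (8.79 to 18.6). The share of cells with an Il23a UMI was 14.5% in the terminal cluster led by Mt2, 0.679% in virgin-type cells and 0.664% in B-like cells, and at 1000 UMIs per cell 3.68%, 0.387% and 0.348%. The 4169 cells above the upper limit on genes, which were left out, held more: 45.2 CPM (43.4 to 47.1) against 14 in all kept cells.

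Osm and Il10 marked myeloid clusters in these uncultured cells. Osm stood at 265.7 CPM in a cluster led by Ace and Ly6i (331 cells), at 237.8 (219.8 to 256.8) in macrophage-like cells (865 cells) and at 148.2 in a cluster led by Cd209a and Mgl2 (537 cells). Among NK-type cells it was at 73.8 (61.9 to 87.2) in cNK-like cells and at 22.8 in virgin-type trNK-like cells, beside 17.7 (8.84 to 31.7) in B-like cells. A cluster of 13 neutrophil- or monocyte-like cells read 682.5 from 12 UMIs. Of the 86 Il10 UMIs, 68 were in macrophage-like cells (24.9 CPM, 19.3 to 31.6; 4.16% of cells), and none was found in virgin-type trNK-like cells, where 0 of 1326 cells allows up to 0.226% of cells with a captured UMI and sets no limit on cells that express the gene.

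Csf2, Csf1 and Lif were sparse. Csf2 had 239 UMIs, with 16.96 CPM (13.2 to 21.5) in virgin-type trNK-like cells and 1.31 (0.43 to 3.06) in the terminal cluster led by Mt2, while the highest value, 43.0 in T-like cells, came from 31 UMIs in 6 cells, 1 of which held 10; with no upper limit on genes per cell, the T-like cluster had no Csf2 UMI. Csf1 was highest among larger clusters in stromal-like cells, at 87.1 (64.4 to 115.1), where 18.0% of cells had a UMI. Lif had 53 UMIs in all, and 14 of the 19 in its highest cluster were in 1 cell.

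**Figure D4:**
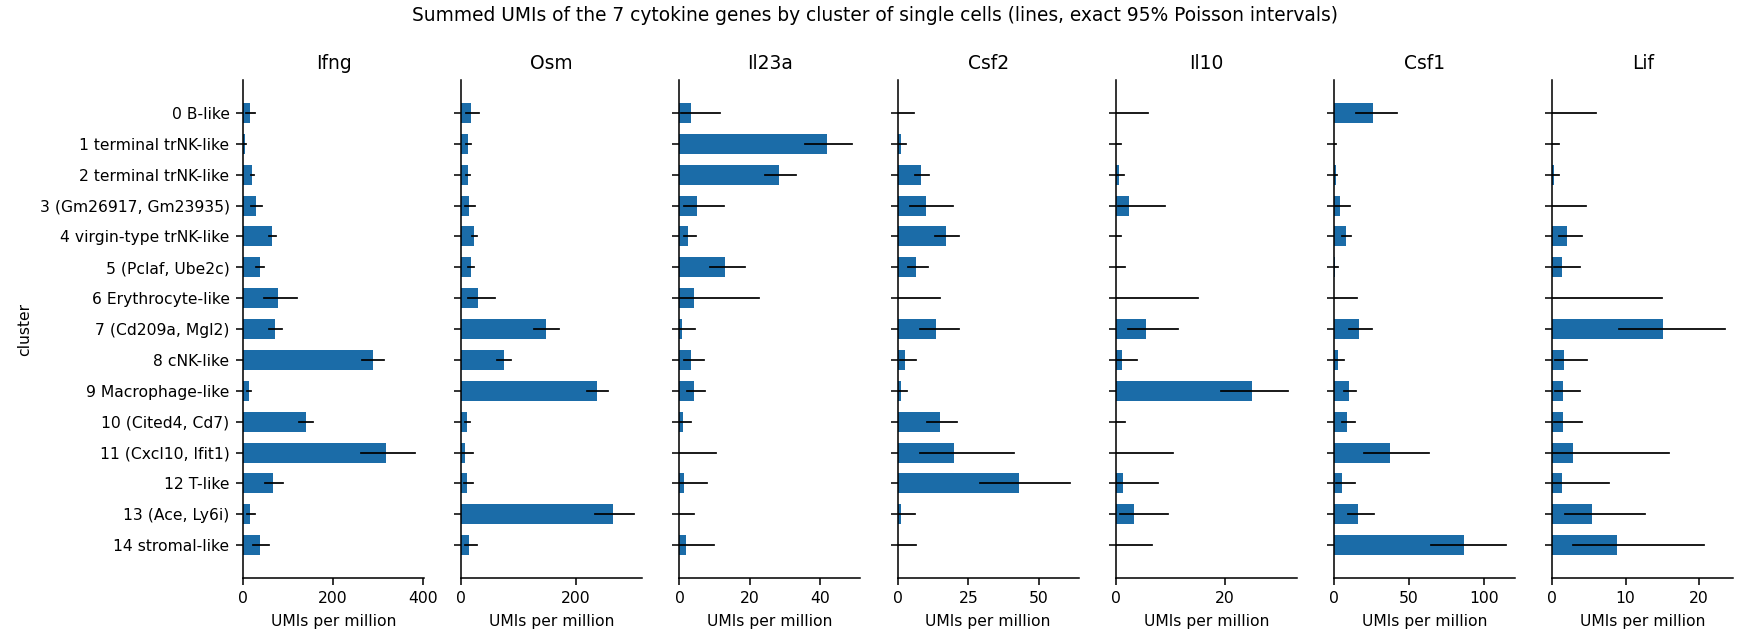
CPM of the 7 cytokine genes (their UMIs scaled to all UMIs of the cluster, on each horizontal axis), in 8907 single cells of virgin and gd8.5 mice together; a cluster of 13 cells is left out. Bars start at 0, lines are exact 95% Poisson intervals (counting error only), and clusters without a name carry their leading genes; Ifng was lowest and Il23a highest in the terminal trNK-like cluster 1 (3.41 and 42.0 CPM).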

How the data were processed

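Reads were aligned with HISAT2 2.1.0 to mm10, and the authors deposited whole-number counts per gene for each bulk library; the submitters' notes name featureCounts, while the methods describe RSEM. Single cells (BD Rhapsody) were deposited as UMI counts per cell and gene (GRCm39). Counts per sample ranged from 11861343 to 66462748. The 4 bulk experiments were fitted separately over all their groups with edgeR 4.0.16 in R 4.3.3 (quasi-likelihood, TMM, filterByExpr, Benjamini-Hochberg over all genes tested). A call needed an adjusted p below 0.05 and a fold above 2. Alternatives were RLE size factors, DESeq2 1.42.0, a minimum of 10 RPKM, no filter, a replicate block and leaving out each library. A bound takes a floor of 3 counts per library. Single cells with 200 to 2500 genes and at most 10% mitochondrial counts were clustered with scanpy 1.11.5 (2000 variable genes, 20 components, resolution 0.8). Intervals are exact 95% Poisson and cover counting error only. Scrublet marked 1 cell and was taken not to have worked, so no doublets were removed. Named genes were the 7 members, at most 3 called genes of each list per comparison with the largest change, and the 3 genes most like each member; Ifngr1, Ifngr2, Csf2ra, Csf2rb, Osmr, Lifr, Csf1r, Il12b, Il21r, Gzmc, Lyz2, Flt3, Ccr7, Zbtb46, Cd209a and H2-Ab1 were added after their values were seen. The members and lists were chosen with earlier results of these data known. The bulk tests, the joint fit and the single-cell clustering were tried on simulated data. The other samples, chromatin accessibility among them, were not analysed here.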

Additional observations from a re-analysis of the deposited data

Results flagged for a closer look

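Signal outside the main measurement was flagged for 1 gene, Il23a, although UMIs of every member lay outside it. The 4169 single cells above the upper limit on genes per cell, which were left out of the main clustering and entered only the setting with no upper limit, held 2421 Il23a UMIs beside 393 in the 8907 kept cells, or 86.0% of both together. Their level was 45.2 CPM, scaled to all UMIs of these cells (43.4 to 47.1), against 14 in the kept cells. Ifng was lower in the same cells, at 17.8 CPM (16.7 to 19.0) against 59.7 in kept cells. Of the UMIs of the other members, 27.1% (Il10) to 48.5% (Csf2) lay in these cells. Deeper cells lie above the limit: the median was 2576 UMIs in kept cells and 4332 with no upper limit. The 86.0% therefore has to be read with the levels. No bulk group was large enough for a check of single outlying libraries, since each had 2.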

How the results depend on the processing

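Of 34 tests of members, RLE size factors changed no call, DESeq2 added 14, and no filter 19; with the minimum of 10 RPKM, 24 stayed on their side of the threshold, 3 gained a call and the others were not tested, being under the minimum. Calls of members moved from 0 in whole trNK to 6 with DESeq2, 9 with no filter, 2 with the RPKM minimum and 0 to 5 with a library left out; from 2 in the subsets to 4, 4, 1 and 0 to 1; from 1 in the 3-day culture to 5, 7, 2 and 0 to 4; and from 0 in the time course to 4 with DESeq2, 8 with no filter and 0 to 4 with a library left out.

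Same-numbered libraries did not deviate together (correlations -0.102 to 0.197), so the numbers were not read as pairs. With the replicate block, calls of members were 0 in the subsets and 0 in the 3-day culture: Ifng in trNK-T against trNK-V was -1.52 (adjusted p = 0.0591), Il23a 11.5 (adjusted p = 0.0581), and Ifng with IL-21 and iSTAT3 against none 4.19 (adjusted p = 0.129). Ifng at gd8.5 against gd6.5 turned to -0.014 under the block, and ranged from -0.56 to 0.48 with a library left out.

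With a library left out, Csf2 in trNK-T against trNK-D ranged from -4.41 to 0.31 and Ifng with IL-21 at 24 h from -0.21 to 2.09. Of such refits of the 34 tests, 273 kept direction and side of the threshold, 17 gained a call, 11 lost one and 3 turned sign. The cause was not tested.

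Counts over all genes moved with the filter, the tool and single libraries. With a library left out they ranged from 0 to 1161 at gd6.5 against virgin, 0 to 657 at gd8.5 against virgin, 87 to 1018 for trNK-T against trNK-V and 515 to 2497 for IL-21 at 72 h. Over the 5 other settings with all libraries they ranged from 0 to 919 at gd6.5 against virgin (5 in the main analysis), 0 to 502 at gd8.5 against virgin (5), 0 to 452 at gd8.5 against gd6.5 (0), 1 to 471 for trNK-D against trNK-V (1), 895 to 2103 for trNK-T against trNK-V (968), 8 to 587 for trNK-T against trNK-D (11), 0 to 191 for IL-21 in the 3-day culture (0), 0 to 741 for adding iSTAT3 (1), 0 to 1007 for IL-21 with iSTAT3 against none (21), 7 to 191, 1 to 206 and 283 to 2205 for IL-21 at 6, 24 and 72 h (10, 1 and 755), and 148 to 1281 for the effect at 72 h minus 24 h (361).

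In single cells, reading the limits as UMIs moved Ifng in terminal trNK-like cells from 13.7 to 53.5 CPM, and no upper limit to 6.44. For Il10 in macrophage-like cells, 24.9 became 17.3 at resolution 0.4, 15.8 with UMI limits and 17.3 with no upper limit. Osm in these cells went from 238 to 158 and 174 under the latter settings, and Csf2 in virgin-type trNK-like cells from 17 to 29.6 with UMI limits. Il23a in terminal trNK-like cells went from 33.8 to 38.1 thinned, 49.4 with UMI limits and 60.8 with no upper limit. The causes were not tested. Removing marked doublets was not run, since 1 cell was marked. With 2 libraries a group and few or no reads, no difference between bulk groups is stated for Lif, Csf1 and ex vivo Il10.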

Other observations

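The genes whose levels moved most like a member over the libraries, each gene centred within its experiment, were Csnk1g3 (Pearson's r = 0.788), Ly6a (0.781) and Muc1 (0.776) for Ifng over 34 libraries. For Il10, over 22 libraries, they were Batf3 (0.945), a transcription factor of dendritic and T cells, Timp1 (0.915), an inhibitor of matrix proteases, and Selenos (0.869). Csf2 was most like Gm32031 (0.761), Tmsb10 (0.732) and Zfas1 (0.720), and Osm most like Tubb2a (0.827), Mgat4b (0.824) and Cenpn (0.790), both over 34 libraries. Il23a, over 12 libraries, was most like Rpl18-ps2 (0.943), Myh15 (0.918) and Ccr7 (0.914), the chemokine receptor of migrating dendritic cells, which stood at 4.16 and 1.45 RPKM in trNK-T and at 4.87 and 1.97 in whole gd8.5 trNK. Csf1 was most like Cst7 (0.627) over 28 libraries and Lif most like Arl11 (0.880) over 16, though 22 of 34 libraries had no read of either member. Each gene named here was picked as among the highest of 11995 (Ifng, Csf2, Osm) to 14879 (Lif) genes compared, which raises r. These are descriptions over libraries that share groups and treatments.

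Within the kept single cells, 14 cells held UMIs of both Il10 and Osm, where 4.27 would follow from their separate shares. For Ifng and Csf2 the count was 21 against 12.98, for Osm and Lif 8 against 2.68, and for Ifng and Il23a 18 against 25.0. Deeper cells hold more UMIs of every gene, so these counts carry no test.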
